A study of Mus musculus with 12 samples.

Results

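The 10 genes described here are feedback genes of the ERK pathway. They are the dual-specificity phosphatases *Dusp4*, *Dusp5* and *Dusp6*, the Sprouty and Spred adaptors *Spry1*, *Spry2*, *Spred1* and *Spred2*, and the transcription factors *Etv5*, *Egr1* and *Fos*. They were taken by name from an RNA-seq table of 41444 mouse genes, and all 10 were found in it. The rule that lists them uses no measured value, but the list was drawn up with earlier results of these data known. Polyadenylated RNA of *BCR-ABL1* transformed mouse pre-B cells, a model of B cell acute lymphoblastic leukemia, was sequenced in 12 samples that formed 4 groups of 3. The cells came from bone marrow of Ctnnb1 fl/fl mice, in which the gene for β-catenin can be excised by Cre, and had been freed from IL-7 after transformation. Compared here are cells with the ERT2 vector, which holds no Cre and leaves β-catenin intact, without (control, 3 samples) or with LY2090314 (3 samples), an inhibitor of GSK3β. All of these cells, controls included, received the tamoxifen metabolite 4-OHT at 1 µM for 2 days. The treated cells also received LY2090314 at 40 nM for 1 day by the sample labels, whereas the legend in the study gives a shorter time. Samples with Cre were not analysed here.

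ERK is the last kinase of a cascade that runs from RAS through RAF and MEK, and in pre-B cells it is driven by cytokine receptors, the pre-B cell receptor or, after transformation, the BCR-ABL1 kinase. Active ERK turns on genes whose products slow the cascade again. Dual-specificity phosphatases remove phosphate from ERK itself, Sprouty and Spred proteins act further up at RAS and RAF, and transcription factors such as ETS and EGR family members and Fos carry the signal into the nucleus.

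Values are regularized log2 (rlog) values, a log2 scale of read counts corrected for library size on which genes with few reads are drawn towards their own mean, so that differences of low genes are understated. A difference of 1 on this scale is a doubling. The samples of each group are numbered by the order of their columns, and LY2090314 samples 1 and 2 share a library number. Across all genes tested, the SD of the difference between samples was 0.185 to 0.253 within groups, 0.186 for the pair with a shared number, and 0.581 to 0.622 between groups. *Axin2*, a β-catenin target, was higher by 1.67 with LY2090314 (adjusted p = 1.5e-05, limma), and *Ctnnb1* itself was lower by 0.35 (adjusted p = 0.0003) but well measured in all 6 samples, from 11.82 to 12.20. All 12 markers of the pre-B lineage were measured, of which 10 were lower and none higher in treated cells, with a log2 summed level of 16.77 to 16.79 in control and 16.30 to 16.44 in treated samples. The T cell markers gave 7.50 to 8.04 in control and 8.08 to 8.45 in treated samples, with 1 of 7 tested (*Cd2*, higher). This sum came almost wholly from *Cd2*, at 7.46 to 8.43, and every other T cell marker was at 2.04 or lower. The myeloid markers gave 5.79 to 6.0 and 6.36 to 6.48, with 1 of 8 tested (*Lyz2*, higher). That sum came mostly from *Lyz2*, at 5.68 to 6.41, with the others at 1.47 or lower and *Mpo*, *Elane*, *S100a8* and *S100a9* listed at 0. None of the 4 erythroid and 4 stromal markers reached the level for a test. The part of these marker changes in the results that follow was not tested, and in bulk RNA a change in the mixture of cells and a change within cells cannot be told apart.

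The stretches of 250 bases upstream of a transcription start, as RefSeq gives them for GRCm38.p6, could be read for 8 of the 10 genes in 9 windows, of which *Etv5* has a pair. *Dusp4* and *Egr1* had no entry. Shown are *Etv5* and *Dusp6*, which rose with LY2090314, and *Fos*, which did not pass the test. Each reads 5′ to 3′ on the strand of the gene. Capitals mark the letters GGAAGT, a longer form of the GGAA core bound by ETS factors.

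Etv5, chr16:22438369-22438618, minus strand: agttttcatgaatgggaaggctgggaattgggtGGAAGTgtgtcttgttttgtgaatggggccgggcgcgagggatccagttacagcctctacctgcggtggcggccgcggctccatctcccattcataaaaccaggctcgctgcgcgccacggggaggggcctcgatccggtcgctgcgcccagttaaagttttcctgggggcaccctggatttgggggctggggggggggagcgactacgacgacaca

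Dusp6, chr10:99262981-99263230, plus strand: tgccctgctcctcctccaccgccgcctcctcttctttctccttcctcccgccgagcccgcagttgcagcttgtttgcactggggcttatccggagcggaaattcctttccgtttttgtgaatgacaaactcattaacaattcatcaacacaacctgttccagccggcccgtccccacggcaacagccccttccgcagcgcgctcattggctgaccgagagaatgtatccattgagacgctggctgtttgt

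Fos, chr12:85473640-85473889, plus strand: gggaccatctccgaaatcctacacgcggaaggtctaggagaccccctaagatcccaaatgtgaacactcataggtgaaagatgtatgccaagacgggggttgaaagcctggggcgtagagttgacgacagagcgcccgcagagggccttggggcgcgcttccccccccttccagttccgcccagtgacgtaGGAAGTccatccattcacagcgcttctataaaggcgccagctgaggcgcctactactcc

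No exon of the annotation lies in these 3 windows. The *Etv5* window shown lies inside the gene, which is on the minus strand and begins at 22439719. The other *Etv5* window, 22439571 to 22439820, is at that end, overlaps an exon of *Etv5* and held no GGAAGT on either strand. GGAAGT stood at bases -217 to -212 of the *Etv5* window and -59 to -54 of the *Fos* window, counted back from the start. It was not found in the *Dusp6* window, which does hold the shorter GGAA. The letters GGAA alone were not among the motifs searched. Searched on both strands, GGAAGT was in 4 of the 9 windows (*Dusp5*, *Etv5*, *Fos* and *Spred2*) and in 19.7% of all 32851 mouse windows of the same length. In all, 11 motifs were searched, which overlap in part. GGAAGT was added after the windows of the 10 genes had been read, so that its count among them cannot be set against that share. Of the other 10, only the CArG box, the site of serum response factor, was found, in the *Dusp5* window and in 1.47% of all windows. Sites farther upstream than 250 bases were not searched for any gene, *Fos* included, and *Egr1* and *Dusp4* had no window. The *Dusp5* stretch holds 2 adjacent boxes, shown in capitals.

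Dusp5, chr19:53529058-53529087, plus strand: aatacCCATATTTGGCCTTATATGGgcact

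This stretch, at bases -87 to -58 from the RefSeq start, lies outside the annotated exons of *Dusp5* and inside an exon of the antisense gene AC137853.2. The motifs without a match in the 9 windows were the TCF/LEF sites ATCAAAG (3.21% of all windows) and TCAAAG (13.8%), the ETS sites CCGGAAGT (2.88%) and CCGGAA (12%), the AP-1 site TGANTCA (6.75%), the cyclic AMP element TGACGTCA (1.55%), the EGR sites GCGTGGGCG (0.536%) and GCGNGGGCG (4.7%), and the E-box CACGTG (6.02%). The *Fos* window does hold TGACGT, a part of the cyclic AMP element, and this shorter form was not among the motifs searched. Matches and their absence describe letters in these windows, and binding was not measured.

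To find which feedback genes changed when GSK3β was inhibited in cells with β-catenin, the treated and control samples were compared with limma over 11536 genes with a mean rlog value of at least 3. All 10 genes passed this limit. *Dusp4*, *Etv5* and *Dusp6* rose, *Egr1* and *Spred1* fell, and *Dusp5*, *Spry1*, *Spry2*, *Spred2* and *Fos* did not pass an adjusted p of 0.05. The 5 of 10 genes called compare with 50.1% of all genes tested, the 3 that rose with 24.8% and the 2 that fell with 25.3%, so the share of feedback genes called was near that of all genes. Among genes called with a log2 difference of at least 1, *Dusp4* and *Etv5* were 2 of 10, both higher, against 6.01% of all genes tested (4.14% higher and 1.86% lower). The median difference of the 10 genes was -0.03 and that of all genes tested 0.01. The groups did not overlap for 5 of the 10 genes, the same 5 that were called, and for 58.6% of all genes tested. For a single gene the smallest p that an exact permutation test of 3 against 3 samples can give is 0.10, and each of the 5 called genes reached it.

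**Figure D1:**
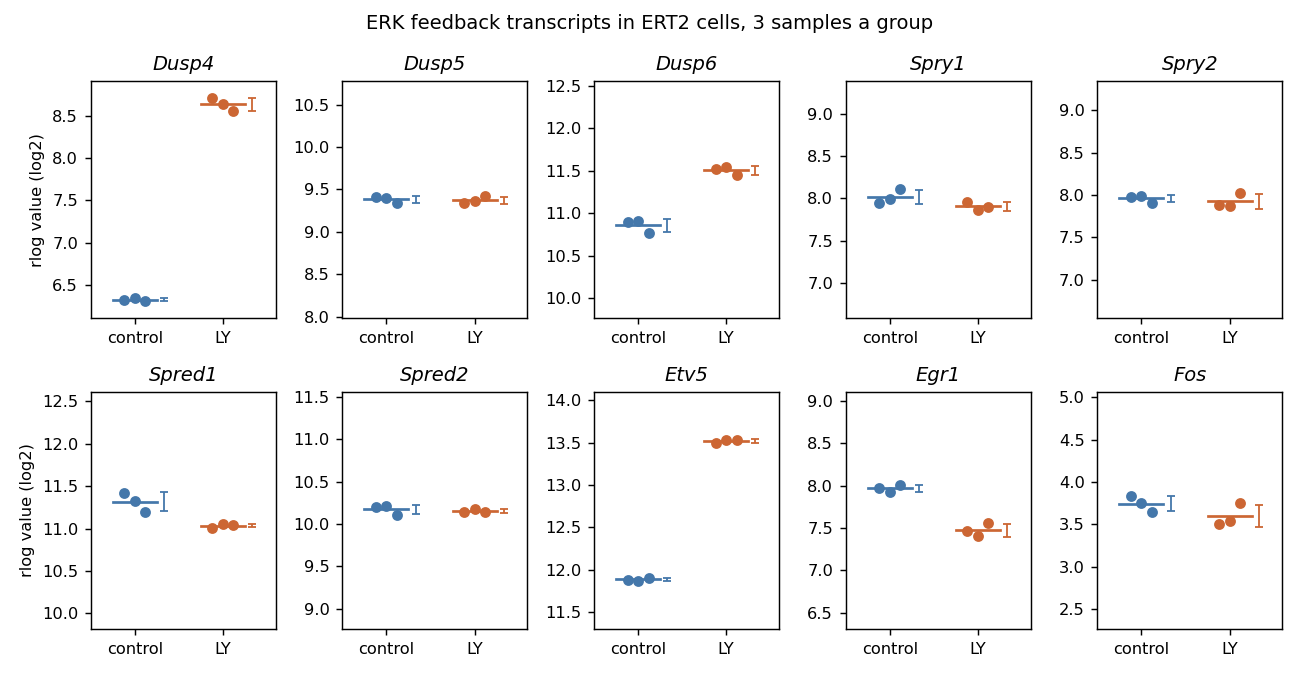
rlog value (log2, y axis) of each of the 10 genes in the 3 control and 3 LY2090314 (LY) samples; points are samples, horizontal lines group means and bars beside them the mean ± SD, and all panels span the same number of log2 units. The groups are far apart for *Dusp4* and *Etv5*, apart by less for *Dusp6*, *Egr1* and *Spred1*, and overlap for the other 5.

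The phosphatases held the largest rise. *Dusp4* (ENSMUSG00000031530, chromosome 8, 34807297 to 34819894 in GRCm38), a nuclear phosphatase that acts on ERK, JNK and p38, was measured at 6.33, 6.35 and 6.31 in control samples and at 8.71, 8.64 and 8.56 in treated samples. Every treated sample was more than 2 units above every control sample. The mean went from 6.33 ± 0.021 to 8.64 ± 0.072 (SD, n = 3). This difference of 2.31 (SE 0.077, 95% interval 2.13 to 2.49, adjusted p = 4e-07, limma) is a 4.95-fold higher level on the linear scale and ranked 94 from the highest among the 11536 genes.

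*Dusp6* (ENSMUSG00000019960, chromosome 10, 99263231 to 99267489) encodes the cytoplasmic phosphatase that is specific for ERK. Its values were 10.89, 10.91 and 10.77 in control cells and 11.52, 11.55 and 11.45 with LY2090314. The groups stood apart, by less than those of *Dusp4*. The difference was 0.65 (SE 0.055, 95% interval 0.52 to 0.77, adjusted p = 4.5e-05), a 1.57-fold rise from means of 10.86 ± 0.074 to 11.51 ± 0.049, at percentile 91.8 of all differences.

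By contrast, *Dusp5* (ENSMUSG00000034765, chromosome 19, 53529109 to 53542431), a nuclear phosphatase specific for ERK, was at 9.41, 9.40 and 9.34 in control and at 9.34, 9.36 and 9.42 in treated samples. The groups covered almost the same range. The difference of -0.01 had a 95% interval of -0.14 to 0.12 (adjusted p = 0.88), and its sign changed with the samples used. *Dusp5* shares 547 exonic bases with AC137853.2 on the other strand, for which the table holds no value. The library kit marks strand, but the strand setting of the counting is not given in the sources used here.

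Within each sample, the difference of *Dusp4* minus *Dusp5* averaged -3.05 in control cells and -0.74 with LY2090314, a change of 2.32. The gap of *Dusp4* to *Dusp6* went from -4.53 to -2.87, a change of 1.66, and that of *Dusp5* to *Dusp6* from -1.47 to -2.13. The groups did not overlap in any of these 3 gaps. Each of the 3 had an exact permutation p of 0.1, the smallest that 3 against 3 samples can give. After adjustment over the 6 pairs of related genes compared, this was 0.12.

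All 6 of the other listed MAP kinase phosphatases with enough signal passed the test, 2 upwards and 4 downwards, with a median difference of -0.46. Of all genes tested, 50.1% passed. *Dusp7* and *Dusp10* fell by 0.78 each (adjusted p = 0.00076 and 0.00036), *Dusp2* by 0.56 (0.00019) and *Dusp1* by 0.36 (0.02). *Dusp9* was higher by 0.27 (0.028) and *Dusp16* by 0.23 (0.041), and *Dusp8* was too low to test, at 1.37 to 1.69. *Dusp7* and *Dusp9* encode cytoplasmic ERK phosphatases of the same subfamily as *Dusp6*, *Dusp1* and *Dusp2* nuclear ones, and *Dusp10* and *Dusp16* phosphatases that prefer p38 and JNK. *Dusp4* had the highest difference among the 9 listed phosphatases tested.

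**Figure D2:**
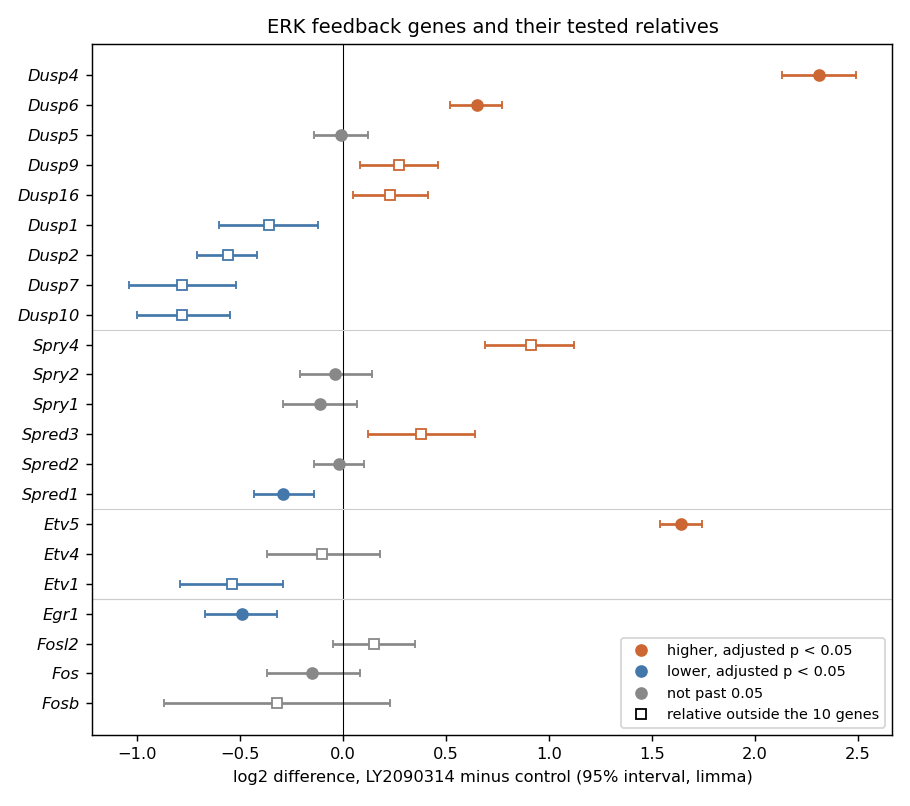
log2 difference, LY2090314 minus control (x axis), with the 95% interval from limma for the 10 feedback genes (filled circles) and their tested relatives (open squares), 3 samples a group. Orange marks genes that rose, blue genes that fell and grey genes not past an adjusted p of 0.05, and within the phosphatase, Sprouty, Spred and Etv families some members lie to the right of 0 and others to the left or across it.

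None of the 4 Sprouty and Spred genes rose. *Spry1* (ENSMUSG00000037211, chromosome 3, 37639947 to 37644598), which encodes an adaptor that blocks RAS activation below receptor kinases, was at 7.95, 7.99 and 8.11 in control and 7.96, 7.86 and 7.90 in treated samples. *Spry2* (ENSMUSG00000022114, chromosome 14, 105891947 to 105896819), its close relative, was at 7.98, 7.99 and 7.91 and at 7.88, 7.87 and 8.02. Both pairs of groups overlapped. The difference was -0.11 (95% interval -0.29 to 0.07, adjusted p = 0.27) for *Spry1* and -0.04 (-0.21 to 0.14, adjusted p = 0.71) for *Spry2*, so a rise of either gene by more than 0.14 lies outside the intervals. Their gap within a sample was 0.06 in control and -0.01 in treated cells and did not pass the test (exact permutation p = 0.5). *Spry1* shares 710 exonic bases with Gm42922 on the other strand, for which the table holds no value.

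*Spred1* (ENSMUSG00000027351, chromosome 2, 117121374 to 117182279), whose product brings neurofibromin to RAS, was at 11.42, 11.33 and 11.20 in control and 11.01, 11.05 and 11.04 in treated samples. The control samples were spread widely, yet all lay above the treated ones. It fell by 0.29 (SE 0.062, 95% interval -0.43 to -0.14, adjusted p = 0.0061), a 1.22-fold lower level. *Spred2* (ENSMUSG00000045671, chromosome 11, 19924375 to 20024026), which acts in the same way, was at 10.20, 10.21 and 10.11 and at 10.14, 10.18 and 10.14, and its difference of -0.02 (-0.14 to 0.10, adjusted p = 0.77) was within the spread of the samples. Within a sample, *Spred1* exceeded *Spred2* by 1.14 in control and by 0.88 in treated cells, without overlap of the groups (exact permutation p = 0.1, adjusted 0.12).

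Outside the 10 genes, *Spry4* was at 5.80, 5.59 and 5.74 in control and at 6.54, 6.65 and 6.66 in treated samples and rose by 0.91 (SE 0.093, adjusted p = 0.00013). *Spred3* rose by 0.38 (SE 0.11, adjusted p = 0.023), and *Spry3* had no value. Of 18 tested genes of the list of other Sprouty, Spred and RAS-ERK inhibitors, 7 rose, 4 fell and 7 did not pass, with a median of 0.12. *Il17rd*, which encodes the ERK inhibitor Sef, rose by 1.19 (adjusted p = 6.1e-05), with values between 3.78 and 4.04 in control and between 4.94 and 5.18 in treated samples.

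Among the transcription factors, *Etv5* (ENSMUSG00000013089, chromosome 16, 22381309 to 22439719), an ETS factor of the PEA3 group whose transcript follows ERK activity in many tissues, was at 11.88, 11.87 and 11.90 in control and 13.49, 13.53 and 13.53 in treated samples. Replicates differed little, and the groups stood far apart. The rise of 1.64 (SE 0.044, 95% interval 1.54 to 1.74, adjusted p = 1.2e-07) is 3.11-fold and ranked 192 from the highest. No other member of the PEA3 group rose past the threshold. *Etv1* fell by 0.54 (adjusted p = 0.0043), and *Etv4* differed by -0.10 (adjusted p = 0.54). Of the 8 other ETS and serum response factors, 3 rose, 2 fell and 3 did not pass, and *Ets2* had the largest difference, a rise of 1.96 (adjusted p = 6.5e-07) with values between 7.56 and 7.75 in control and between 9.58 and 9.67 in treated samples.

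*Egr1* (ENSMUSG00000038418, chromosome 18, 34859823 to 34864984), a zinc finger factor and immediate early gene, went the other way. It was at 7.97, 7.93 and 8.01 in control and at 7.46, 7.41 and 7.56 in treated samples. All treated samples were below all control samples. *Egr1* fell by 0.49 (SE 0.077, 95% interval -0.67 to -0.32, adjusted p = 0.0011), which is 1.41-fold and the largest fall of the 10 genes.

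*Fos* (ENSMUSG00000021250, chromosome 12, 85473890 to 85477273), the immediate early gene for a subunit of AP-1, was the lowest of the 10 genes, at 3.83, 3.75 and 3.65 in control and 3.5, 3.54 and 3.75 in treated samples. The groups overlapped, and the difference of -0.15 (95% interval -0.37 to 0.08, adjusted p = 0.24) did not pass. Since rlog values of low genes are drawn together, a difference in *Fos* would be understated. The gap between *Egr1* and *Fos* was 4.23 in control and 3.88 in treated cells, with groups that did not overlap (exact permutation p = 0.1, adjusted 0.12).

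Of the relatives of *Fos* and *Egr1*, *Fosb* (-0.32, adjusted p = 0.29) and *Fosl2* (0.15, adjusted p = 0.19) did not pass either, and *Fosl1*, *Egr2* and *Egr3* were too low to test. The other immediate early genes split, with 4 higher, 2 lower and 5 not past the threshold among 11 tested of 16. *Btg2*, which encodes an antiproliferative protein, rose by 2.44 (adjusted p = 7.7e-08), while *Jund*, for another AP-1 subunit, fell by 1.44 (adjusted p = 4.1e-06).

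Levels between genes were compared per kilobase, as the rlog value minus the log2 of the exonic length in kilobases, which is approximate because the length covers all annotated exons. In control cells the order from the highest was *Etv5* at 9.84, *Dusp6* at 9.21, *Spred1* at 8.56, *Dusp5* at 8.08, *Spred2* at 7.97, *Spry2* at 6.90, *Spry1* at 6.48, *Egr1* at 5.81, *Dusp4* at 4.88 and *Fos* at 2.51. No neighbours in this order overlapped over the 3 samples, in control or in treated cells. With LY2090314, *Etv5* reached 11.48 and *Dusp6* 9.86, still the highest. *Dusp4* moved from place 9 to place 6, at 7.18, above *Spry2* at 6.86, *Spry1* at 6.37 and *Egr1* at 5.31, and *Fos* stayed last at 2.36.

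**Figure D3:**
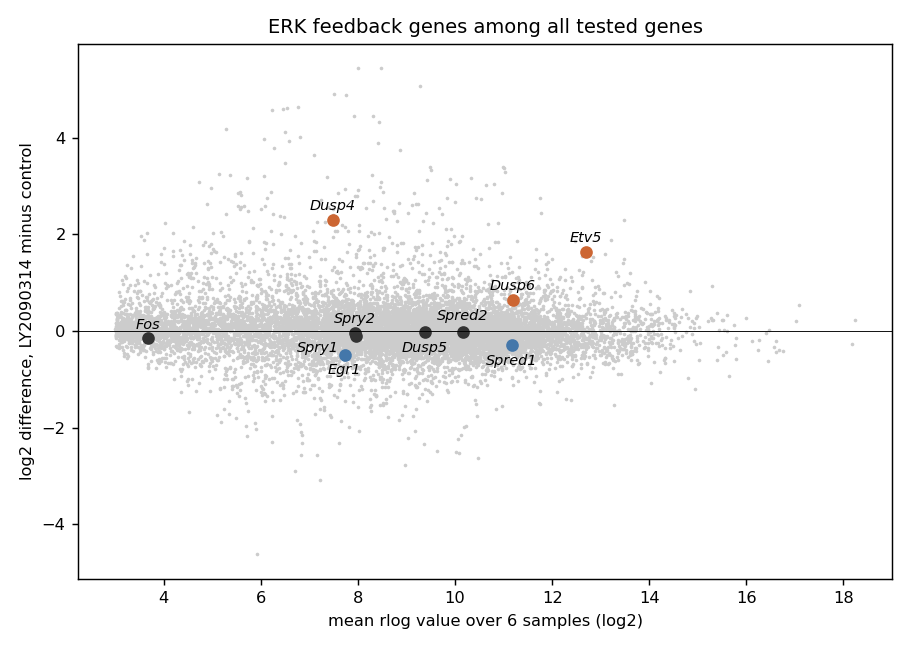
log2 difference, LY2090314 minus control (y axis), against the mean rlog value over the 6 samples (x axis, log2) for all 11536 genes tested (grey) and the 10 feedback genes (large points, orange higher, blue lower, dark not past an adjusted p of 0.05). *Dusp4* and *Etv5* stand above most genes of their level, at percentiles 99.2 and 98.3 of all differences. The 5 genes not called lie between percentiles 32.7 and 47.3, with *Fos* at the low end of the levels.

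In the cascade above these genes, *Mapk3*, which encodes ERK1, differed by 0.19 (adjusted p = 0.055), and *Map2k1* and *Map2k2*, which encode MEK1 and MEK2, by 0.09 (0.21) and -0.26 (0.072). None of these 3 passed, and only for *Mapk3* among them did the groups not overlap. Of the 23 cascade genes, all tested, 6 rose, 4 fell and 13 did not pass, with a median of 0.10. *Rasgrp2*, for an exchange factor of small GTPases, fell by 1.55 (adjusted p = 6.6e-07), and *Gab1*, for a docking protein of receptor kinases, by 1.42 (adjusted p = 6.8e-06). Among 7 kinases that ERK activates, 2 rose and 1 fell.

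Of 7 tested among the other 9 transcripts known to follow ERK activity, 2 rose and 2 fell. *Phlda1*, for a pleckstrin homology-like protein, was at 8.44, 8.40 and 8.52 in control and 11.20, 11.15 and 11.25 in treated samples, a rise of 2.75 (adjusted p = 2.9e-08), and *Epha2*, a receptor kinase gene, rose by 1.41 (adjusted p = 2.5e-06). *Myc* fell by 2.64 (adjusted p = 1.9e-08), with values between 11.76 and 11.84 in control and between 9.13 and 9.17 in treated samples, and *Lif*, a cytokine gene, fell by 1.03 (adjusted p = 0.00018). Over all 90 pathway genes outside the 10, 80 were tested, of which 26 rose, 19 fell and 35 did not pass, with a median of 0.07 against 0.01 for all genes tested. The counts of these lists stand beside 24.8% higher and 25.3% lower among all genes tested.

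**Figure D4:**
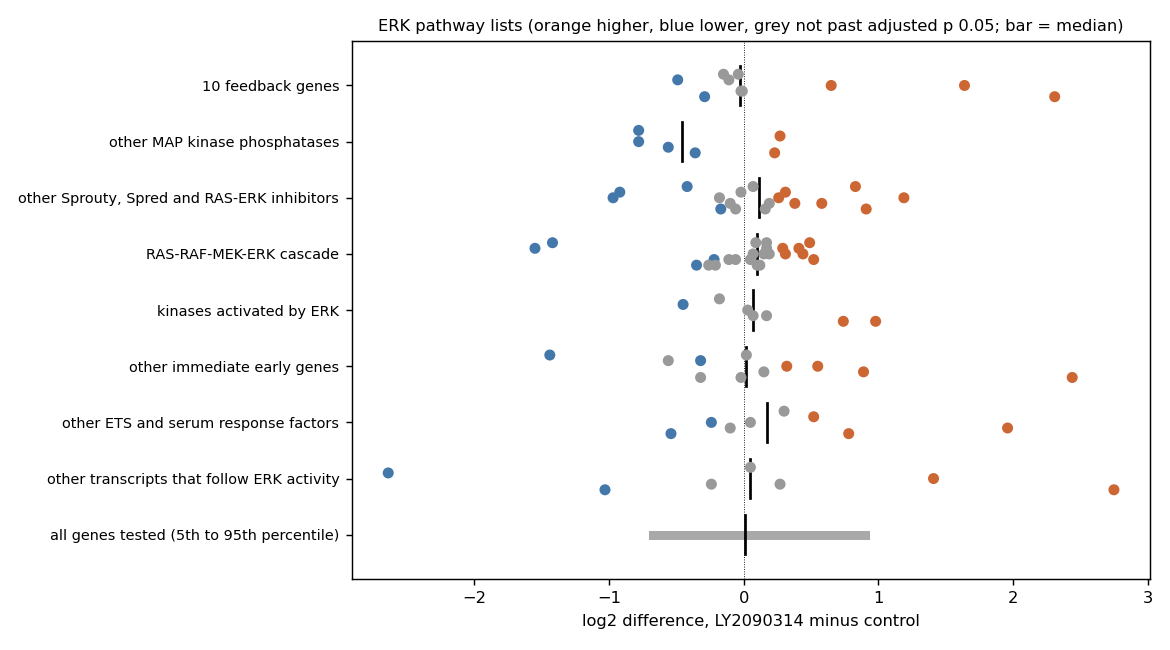
log2 difference, LY2090314 minus control (x axis), of every tested gene in the 10 feedback genes and the 7 other pathway lists (rows), with a black bar at each list's median; the bottom row gives the 5th to 95th percentile of all genes tested. Orange points rose, blue fell and grey did not pass an adjusted p of 0.05, and each list holds genes on both sides of 0.

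The 3 genes whose profile over the 6 samples, centred on the control mean, was most like that of *Dusp4* were the kinase gene *Sbk1* (root mean square distance 0.0399 on the log2 scale), the acid phosphatase gene *Acpp* (0.0628) and *Bcl2* (0.0955), which encodes an inhibitor of apoptosis, with differences of 2.31, 2.24 and 2.22. For *Egr1* they were *Sae1* (0.0198), for a subunit of the SUMO-activating enzyme, the small GTPase gene *Rab35* (0.025) and the NAD kinase gene *Nadk* (0.0275), with differences of -0.49, -0.48 and -0.49. The distance is not scaled by gene, so it picks genes with about the same difference between groups. Shared regulation was not tested.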

How the data were processed

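RNA was measured in 12 samples of mouse pre-B cells. By the labels and the study's methods, the authors made stranded libraries of polyadenylated RNA, sequenced them paired-end, used Salmon and STAR with GRCm38 and DESeq2 1.30.1, and deposited rlog (log2) values. Which samples and options entered the transformation is not given in the sources used here. No read counts were used here, so depth is unknown and no counting interval is given. Of 12 columns, 6 were matched to a group by name. The other 6, whose names could not be matched, were not used.

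Genes with a mean of at least 3 over the 6 samples were fitted in R 4.3.3 by the limma package, version 3.58.1, using variances moderated along their trend with the mean, and p-values were adjusted by Benjamini-Hochberg over all 11536 genes. The threshold was 0.05, and intervals are 95% intervals of the fit. Adjusted p-values of genes come from this fit unless an alternative is named, and the fit was tested on simulated data. Permutation tests were exact and two-sided. The legend in the study gives 3 mice as biological replicates. The columns do not tell separate mice or cultures apart, and a library number is shared within the LY2090314 group. P-values therefore measure the spread between these samples.

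The 10 genes and the lists were chosen with earlier results of these data known. Named are the 10 genes, their family members, up to 4 genes a list that passed with a difference of at least 1, *Ctnnb1* and *Axin2*, and the 3 profiles nearest to the strongest rise and fall. *Mapk3*, *Map2k1* and *Map2k2* were named after their values were seen. A further result is not reported here. Symbols matched 41157 of 41444 identifiers. Positions are from GENCODE vM21, an earlier release than that of the authors (vM24), on the same build. Upstream windows are from RefSeq. The alternatives were no trend, no lower limit or one of 5, median centring, quantile normalization, leaving out each sample, a threshold of 0.01, a log2 difference of at least 1, and the samples with a shared library number as 1.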

Additional observations from a re-analysis of the deposited data

How the results depend on the processing

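*Dusp4*, *Etv5* and *Dusp6* stayed higher and *Egr1* and *Spred1* lower, past the threshold, in all 12 alternative fits, with ranges of 2.24 to 2.34, 1.61 to 1.66, 0.60 to 0.68, -0.56 to -0.46 and -0.34 to -0.23 (highest adjusted p of *Spred1* 0.027, limma without control sample 2). The other 5 genes passed in none of these fits. *Dusp5* changed sign around 0, from -0.04 to 0.0075 when each sample was left out (above 0 without control sample 1, at 0.0029, or treated sample 1, at 0.0075) and to 0.0013 with the shared library number counted as 1 sample. *Fos* was not tested with a limit of 5.

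With a log2 difference of at least 1 also required, 693 genes were called, 478 higher and 215 lower, with 2 of the 10 genes, 0 of them lower, and 10 of the other pathway genes. Leaving out each sample gave 4734 to 6228 genes called and 5 of the 10 genes each time. Quantile normalization moved the share of calls that were higher from 49.5% to 43.4% and the change of *Dusp4* against *Dusp6* from 1.66 to 1.6 on the log2 scale.

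No paired analysis was possible because replicate numbers stand in the titles of the samples and not in the columns' names. The replicate block was therefore not run, and neither was a fit over more columns than these 6, since no other column was matched to a group. Without counts, what depth limits is unknown.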
